A study of Mus musculus with 12 samples.

Results

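The 4 mouse liver libraries labelled DM were set against the 4 labelled CTL and the 4 labelled DMH combined, out of 12 libraries in all. The groups were taken from the sample titles alone. For each gene the log2 level of DM was compared with the equal-weight average of the CTL and DMH levels, so that a gene scores most where DM stands apart and DMH lies back at the CTL level. The comparison asks which genes were particular to DM and set back in DMH.

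The groups DM, CTL and DMH share liver as their labelled tissue and total RNA as their starting material. What DM and DMH stand for is not spelled out, and the labels give neither strain, sex, age, diet, dose nor duration. The study's title names a red Chlamydomonas reinhardtii, an alga rich in protoporphyrin IX, and anti-diabetic effects in liver. Protoporphyrin IX is the porphyrin into which iron is placed to make haem. Which of the groups were given the alga cannot be read from the labels. The labels do not state that each library is a separate animal. The p-values therefore measure only the spread among these libraries, and that spread may be technical. Because the extraction text speaks of retinas, marker genes were examined. All 10 hepatocyte markers were detected, at a summed 41470 to 54490 CPM (counts scaled to a common library total) in DM, 59820 to 76480 in CTL and 34020 to 52150 in DMH. The 10 photoreceptor markers summed to 2.99 to 23.7 CPM in DM, 14.1 to 54.6 in CTL and 10.3 to 25.8 in DMH, and 4 of them were at 0 counts in all 12 libraries. Both sums are over the plain library total, which ran from 13430122 to 17038017 counts per library.

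The liver stores glucose as glycogen and releases it to the blood, with glucose-6-phosphatase and phosphoenolpyruvate carboxykinase as control points that insulin holds down. Hepatocytes also make bile acids, plasma proteins and drug-metabolising enzymes, and Kupffer cells, its resident macrophages, lie in the sinusoids. Short nuclear RNAs also enter the results below. The 7SK RNA holds the transcription elongation kinase P-TEFb in an inactive complex, and the U1 small nuclear RNA pairs with the start of introns as the first step of splicing.

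Of 14643 genes tested, 3 were called in DM against CTL and DMH together at an adjusted p under 0.05 by edgeR's quasi-likelihood test, which is 0.0205% of those tested. All 3 were lower in DM: the 7SK-related RNA gene Gm24447, the U1 gene copy Gm22068 and Sftpb, which encodes the lung surfactant protein B. No gene was called as higher. At an unadjusted p under 0.05 the same test gave 875 higher and 1094 lower genes, which are 5.98% and 7.47% of those tested. DESeq2, on the same counts, called 151 higher and 214 lower genes, while limma on log2(FPKM + 1) called 0 higher and 4 lower (FPKM is the count scaled for gene length and library total). Leaving out the DMH3 library raised the edgeR count to 12 higher and 7 lower genes, leaving out CTL1 gave 4 higher and 3 lower, leaving out DM3 gave 1 higher and 5 lower, and leaving out DM1 left 1 lower gene.

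**Figure D1:**
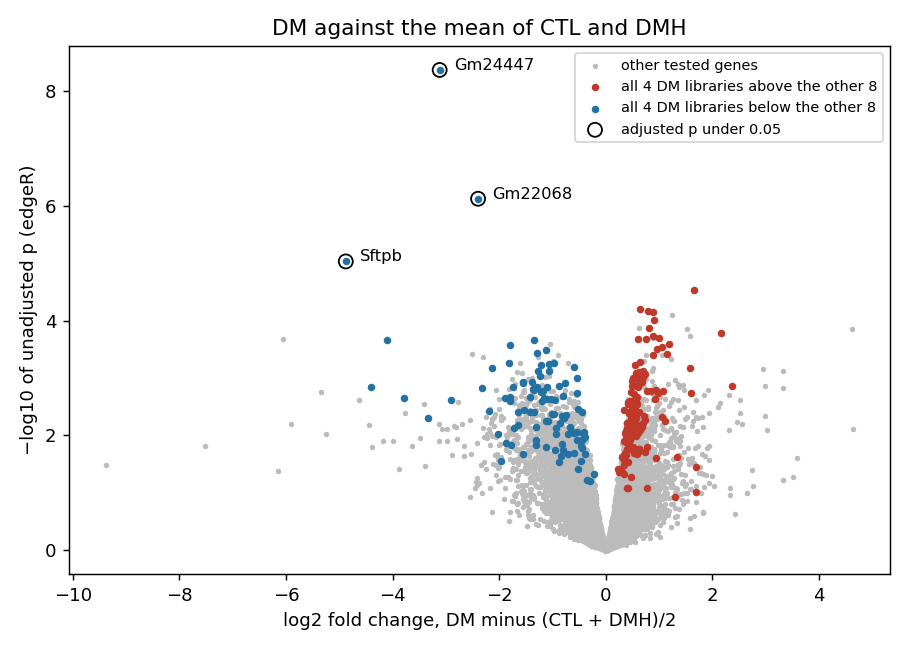
Each of the 14643 tested genes by its log2 fold change in DM minus the average of CTL and DMH (horizontal axis) and the −log10 of its unadjusted edgeR p (vertical axis). Coloured points are the 145 genes whose 4 DM libraries all lay above the other 8 and the 99 whose DM libraries all lay below; the 3 circled genes, Gm24447, Gm22068 and Sftpb, passed the adjusted p of 0.05.

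Gm24447 (ENSMUSG00000065911) is annotated as a miscellaneous RNA of 338 bases at chr15:93234363-93234700 on the plus strand (GRCm38). Its first 241 bases are identical to those of Rn7sk, the 7SK gene at chr9:78175303-78175633 on the minus strand. Of the 25-base words of Gm24447, 69.1% occur in Rn7sk and 79.3% in at least 1 of 216 other genes. Part of what follows the shared start therefore also occurs elsewhere. Gm22068 (ENSMUSG00000096205), 164 bases at chr11:87426716-87426879 on the plus strand, is annotated as a small nuclear RNA and lies inside the span of Tex14 without sharing an exon with it. Every 25-base word of Gm22068 occurs also in the U1 gene Rnu1a1, and 55 other genes share at least 1 of its words. The 3 sequences are shown because a reader can see from them how far reads of the called copies and of their relatives can be told apart. They are written 5′ to 3′ from the GENCODE M21 transcripts. For the first 2 the last 100 of the shared bases and all that follow are printed (positions 142 to 338 of Gm24447, chr15:93234504-93234700, and 142 to 331 of Rn7sk, chr9:78175303-78175492), with capitals where they part. Gm22068 is printed whole, and its capitals mark positions 3 to 11, the stretch with which U1 pairs to the start of introns.
Gm24447: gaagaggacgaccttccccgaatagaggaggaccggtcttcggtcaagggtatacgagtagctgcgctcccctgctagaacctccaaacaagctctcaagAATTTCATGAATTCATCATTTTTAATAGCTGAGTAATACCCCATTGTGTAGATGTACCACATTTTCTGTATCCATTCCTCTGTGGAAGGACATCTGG
Rn7sk: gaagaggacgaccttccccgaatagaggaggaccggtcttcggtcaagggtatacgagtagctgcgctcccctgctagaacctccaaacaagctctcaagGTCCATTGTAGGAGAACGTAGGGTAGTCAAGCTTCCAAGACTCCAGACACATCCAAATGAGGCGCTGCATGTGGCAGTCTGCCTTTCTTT
Gm22068: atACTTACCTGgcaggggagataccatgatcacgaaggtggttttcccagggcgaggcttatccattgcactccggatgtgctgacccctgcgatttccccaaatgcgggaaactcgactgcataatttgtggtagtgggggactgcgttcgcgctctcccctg

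Gm24447 had 20, 21, 28 and 20 counts in DM1 to DM4, against 186, 253, 175 and 283 in CTL1 to CTL4 and 171, 225, 208 and 170 in DMH1 to DMH4. All 4 DM libraries were far below the other 8, and the CTL and DMH libraries covered the same range. The gene fell by 3.12 ± 0.22 on the log2 scale in DM relative to CTL and DMH together (SE, adjusted p = 6.33e-05, edgeR). DMH and CTL did not differ beyond their spread, at -0.02 ± 0.21 for DMH minus CTL (adjusted p = 0.968). The nearest tested gene, Gxylt1, a xylosyltransferase gene 5042 bases away, averaged 6.45 CPM in DM, 7.88 in CTL and 6.01 in DMH.

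Rn7sk itself was not called. It had 21.2, 20.4, 11.4 and 16.5 CPM in DM1 to DM4, against 35.3, 28.0, 28.9 and 45.3 in CTL1 to CTL4 and 37.0, 43.2, 29.4 and 26.6 in DMH1 to DMH4, with CPM scaled here by TMM factors. The DM libraries again lay below all others, by -0.98 ± 0.21 on the log2 scale (adjusted p = 0.172). Of the 3 genes that share at least 50% of the 25-base words of Gm24447, Rn7sk held nearly all counts, with 5338 over the 12 libraries, beside 23 for Gm26315 and 2 for Gm26035. Gm26315 went the other way, with 8, 2, 5 and 4 counts in DM1 to DM4, against 1, 1, 0 and 0 in CTL1 to CTL4 and 0, 0, 1 and 1 in DMH1 to DMH4. Gm24447 and these 3 together summed to 16.2 to 23.2 CPM in DM, 41.5 to 63.0 in CTL and 40.1 to 53.4 in DMH (plain library total). How shared reads were divided between the copies was not tested.

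Gm22068 had 6, 7, 7 and 7 counts in DM1 to DM4, against 36, 34, 48 and 46 in CTL1 to CTL4 and 28, 40, 40 and 39 in DMH1 to DMH4. It fell by 2.40 ± 0.27 on the log2 scale (SE, adjusted p = 0.00555, edgeR), with no overlap between DM and the other groups. The sums of its relatives overlapped between the groups. The 20 other genes that share at least 50% of its words summed to 3.56 ± 0.80 CPM in DM, 3.17 ± 0.55 in CTL and 2.79 ± 1.09 in DMH (SD, n = 4 each, plain library total). With Gm22068 included the sums were 4.01 ± 0.81 CPM in DM, 5.75 ± 0.80 in CTL and 5.16 ± 1.22 in DMH, and the DM range of 3.13 to 4.83 overlapped the CTL range of 4.77 to 6.65 and the DMH range of 4.35 to 6.95. The value of this 1 copy is therefore uncertain as a measure of U1 RNA. The call was lost without DM1 (adjusted p = 0.0589).

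Other short RNA genes were examined, and none was called. Rpph1, the RNA part of ribonuclease P, which trims transfer RNA precursors, had 0.947, 1.69, 0.921 and 1.02 CPM in DM1 to DM4, against 3.89, 3.58, 2.84 and 4.89 in CTL1 to CTL4 and 3.80, 7.64, 2.53 and 2.56 in DMH1 to DMH4. The DM libraries lay below all 8 others, by -1.79 ± 0.36 on the log2 scale (adjusted p = 0.147). Exons of Ccnb1ip1 overlap it on the same strand, so that value is uncertain. Rmrp, the RNA of the related ribonuclease MRP, averaged 0.488 CPM in DM, 1.19 in CTL and 0.826 in DMH and overlapped between groups (-1.04 ± 0.45, adjusted p = 0.341). With 6, 13, 3 and 5 counts in DM1 to DM4, Rmrp passed the filter on low counts only through CTL and DMH. It lies across from Ccdc107, which averaged 138 CPM, and the strand setting of the counting is not given in the sources used here. Rn7s1, a 7SL gene for the RNA of the signal recognition particle, averaged 65.3 CPM in DM, 116 in CTL and 113 in DMH (-0.81 ± 0.22, adjusted p = 0.194). Of the 9 tested genes in the list of nuclear RNAs, 8 had a log2 difference below 0 and 4 of these an unadjusted p under 0.05. Rn7sk, Rpph1 and Rmrp, described above, are among these 4. The summed level of the list was not lower in DM than in CTL. It ran from 753 to 1296 CPM in DM, 584 to 849 in CTL and 989.5 to 2533 in DMH (plain library total). The median over the list was -0.30, or -0.55 without DM3, beside -0.01 over all tested genes.

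**Figure D2:**
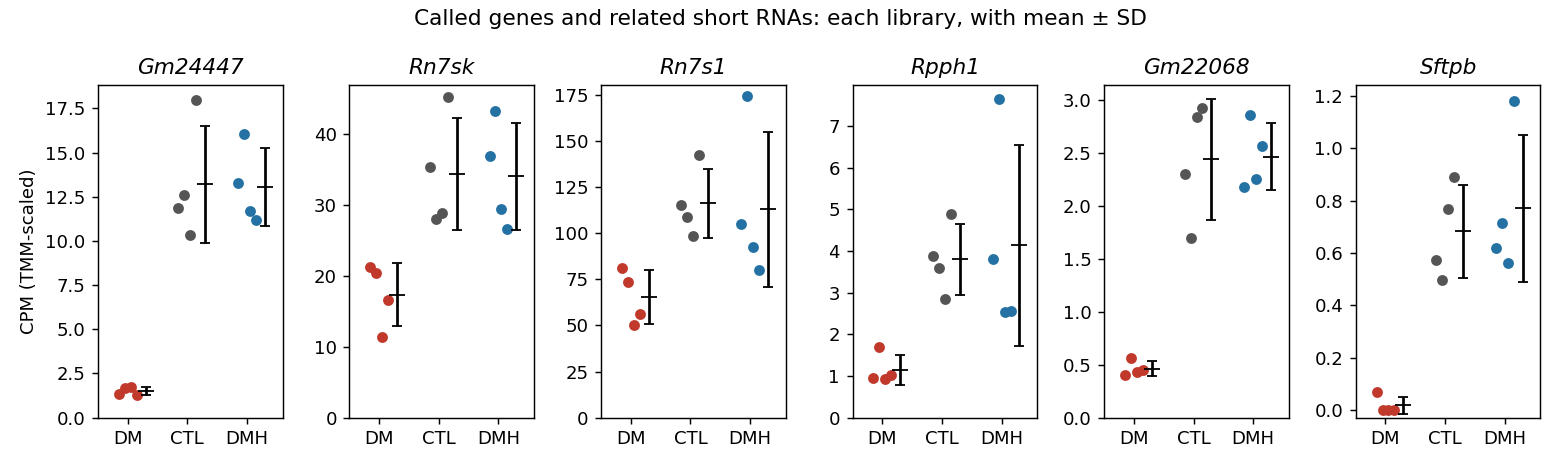
TMM-scaled CPM of 6 genes in each library (points) of DM, CTL and DMH, with the mean and SD of each group beside the points; each panel has its own scale from 0. The DM libraries lie below the other 8 for Gm24447, Rn7sk, Rpph1, Gm22068 and Sftpb, while Rn7s1 in DM, at 50.2 to 81.4 CPM, overlaps DMH.

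Sftpb (ENSMUSG00000056370, chr6:72304610-72314371) had 1, 0, 0 and 0 counts in DM1 to DM4, against 9, 10, 13 and 14 in CTL1 to CTL4 and 8, 10, 10 and 18 in DMH1 to DMH4. The gene fell in DM (adjusted p = 0.0456, edgeR). It passed the filter on low counts only through the CTL and DMH libraries, where it is high, and it is not tested where every library must reach 1 CPM. The same holds for Gm22068, whose DM libraries had at most 7 counts. The summed DM count over the summed count of CTL and DMH, scaled for depth, was a ratio of 0.0225, with a 95% exact interval of 0.000563 to 0.129 that covers counting error only. The product keeps the air spaces of the lung open, and its level in liver was low in every library, at 1.18 CPM at most. Other genes known from lung were examined after these values had been seen: 5 of a list of 10 were tested, and 1, Sftpb, was called. Ager, the receptor for advanced glycation end products, averaged below both groups in DM as well (-1.34 log2, adjusted p = 0.185). Sftpa1, another surfactant protein gene, lay at 6.62 to 9.15 CPM in DM, 4.03 to 13.1 in CTL and 5.57 to 10.3 in DMH, so its groups overlapped. The adjusted p of Sftpb ran from 0.0244 to 0.217 when 1 library at a time was left out, and of these 12 fits the call remained in 2, without CTL1 and without DMH3.

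Most genes that separated DMH from CTL had intermediate levels in DM. Between DMH and CTL, 2255 genes were called (15.4% of those tested), and none of them was among the 3 called for DM. The count was 1429, 623 and 1487 without CTL1, CTL2 or CTL3, and 978, 1236 and 969 without DMH1, DMH2 or DMH3. The share of counts from the mitochondrial genome had the same order of groups, at 24.2 ± 6.54% in DM, 15.4 ± 7.37% in CTL and 30.1 ± 6.22% in DMH (SD, n = 4 each), and with that share as a covariate 0 genes were called between DMH and CTL by edgeR, with 913 higher and 721 lower at an unadjusted p under 0.05. For 1999 of the 2255 (88.6%) the DM level lay between the other 2 group levels. It lay above both for 118 (5.23%) and below both for 138 (6.12%). These genes were chosen for a wide gap between DMH and CTL, which in itself leaves room for DM in between, and the DM libraries entered the scaling and the spread of the shared model. The shares and positions are therefore a description. Averaged over them, and set on a scale on which the CTL mean is 0 and the DMH mean 100, the DM libraries stood at 38.7, 57.8, 54.4 and 57.9%. The CTL libraries stood at -14.3 to 17.0% and the DMH libraries at 69.5 to 115.3%, so the DM libraries overlapped neither.

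**Figure D3:**
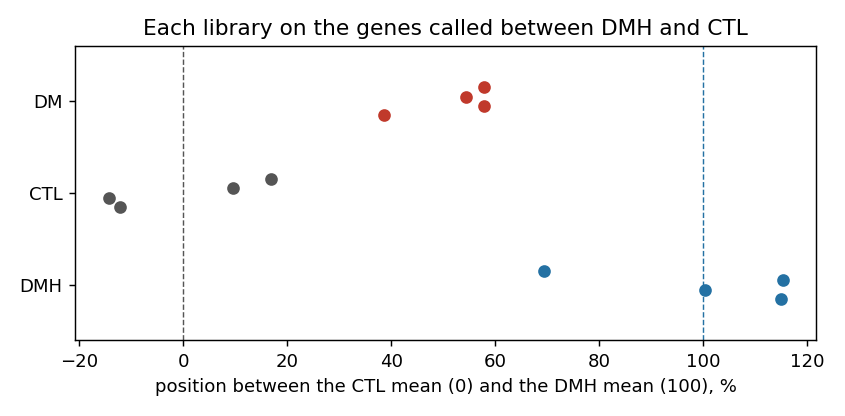
Each library's average over the 2255 genes called between DMH and CTL, as a percentage of the way from the CTL mean (0, dashed line) to the DMH mean (100, dashed line); rows are DM, CTL and DMH and points are libraries. The DM libraries lie at 38.7 to 57.9%, between all CTL and all DMH libraries.

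In the other 2 contrasts that hold DM, 32 genes were called in DM against CTL (0.219%) and 5 in DM against DMH (0.0341%). Gm24447, Gm22068 and Sftpb were the 3 genes called in both in the same direction. Over all tested genes the DM level was above both other groups for 24.5% and below both for 29.4%. In a principal component analysis of log2 CPM, the leading component (23.5% of the variance) placed DM between CTL and DMH in most libraries, with DMH4 among DM at 5.80. The next (15.7%) held the DM libraries at 26.4 to 40.2 and the CTL and DMH libraries at -72.3 to 14.3. The mitochondrial share in DM, between those of CTL and DMH, was 1.39 percentage points above that of the 8 other libraries together (exact permutation test over 495 arrangements, two-sided, p = 0.812).

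Of all tested genes, 145 (0.99%) had all 4 DM libraries above the other 8, and 99 (0.676%), the 3 called genes among them, had all 4 below. The protein-coding genes of this kind that were not called and had the lowest unadjusted p are described next, although their adjusted p of 0.107 to 0.185 did not pass the threshold. Of those with DM above, Slc17a8, a vesicular glutamate transporter gene (ENSMUSG00000019935, chr10:89574020-89621253), had the lowest p, with 37.9, 36.8, 37.8 and 46.3 CPM in DM1 to DM4, against 4.91, 7.06, 11.7 and 15.6 in CTL1 to CTL4 and 10.2, 20.1, 16.9 and 17.9 in DMH1 to DMH4. The lowest DM library was far above the highest of the others, at 1.65 ± 0.26 on the log2 scale (adjusted p = 0.107). It was called by DESeq2, without a filter on low counts, and without CTL1 or CTL4.

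Akr1c14 and Akr1c20 encode aldo-keto reductases that act on steroid hormones. Akr1c14 (chr13:4049011-4090688) had 341, 276, 341 and 323 CPM in DM1 to DM4, against 108, 117, 147 and 153 in CTL1 to CTL4 and 173, 258, 264 and 228 in DMH1 to DMH4. DM was highest and CTL lowest, with DMH in between (0.88 ± 0.15 log2, adjusted p = 0.136). Akr1c20, 10.4% of whose words occur in other genes, averaged 0.65 ± 0.11 log2 above the other groups. Its DMH level also lay in between, with means of 40.4 CPM in DM, 22.5 in CTL and 29.6 in DMH. Etfa (chr9:55454508-55512243), the alpha subunit of the electron transfer flavoprotein that takes electrons from fatty acid oxidation, had 388, 455, 377 and 362 CPM in DM1 to DM4, against 172, 207, 224 and 237 in CTL1 to CTL4 and 180, 277, 224 and 279 in DMH1 to DMH4. Here the levels in CTL and DMH overlapped and DM stood above both (0.82 ± 0.15 log2, adjusted p = 0.136).

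Mocs2, which helps make the molybdenum cofactor of oxidases, had 106, 82.3, 98.7 and 73.9 CPM in DM1 to DM4, against 50.9, 63.7, 57.2 and 57.2 in CTL1 to CTL4 and 44.2, 39.4, 49.3 and 55.9 in DMH1 to DMH4. It differed by 0.80 ± 0.14 log2 (adjusted p = 0.136). The mitochondrial proteins Lactb (0.88 ± 0.17 log2) and Nars2 (1.05 ± 0.21), the second an asparaginyl transfer RNA synthetase, also had all 4 DM libraries above the other 8. So did Serf1 (1.01 ± 0.19) and Adgrv1, an adhesion receptor gene that had at most 5.72 CPM in any library (2.15 ± 0.41). The glutathione-degrading enzyme gene Chac2 (0.61 ± 0.12) and the carbonic anhydrase relative Car8 (0.75 ± 0.15) had DM above the other 8 as well, but DMH lay above CTL. Chac2 averaged 27.2 CPM in DMH and 20.4 in CTL, and Car8 56.1 and 39.5. Cyp2c38, a cytochrome P450 gene with 21.2% of its words in other genes, was at 0.90 ± 0.16 log2. It averaged 61.3 CPM in DM, 43.85 in CTL and 24.55 in DMH, so DMH lay below CTL.

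Of the 10 described here with DM below, several are known from immune cells. Pirb, an inhibitory receptor of myeloid and B cells, had 2.30, 3.46, 1.84 and 2.10 CPM in DM1 to DM4, against 9.81, 9.25, 7.27 and 5.15 in CTL1 to CTL4 and 4.42, 3.64, 3.49 and 6.31 in DMH1 to DMH4. The highest DM library was just under the lowest DMH library (-1.29 ± 0.27 log2, adjusted p = 0.161), and 48.3% of the words of Pirb occur in other genes. Aim2, a sensor of DNA in the cytosol, was at -1.27 ± 0.29 log2, and Pilrb2, a paired immunoglobulin-like receptor with 55.0% shared words, at -1.81 ± 0.39. Pilrb2 had 12, 10, 14 and 13 counts in DM1 to DM4. The filter on low counts scales with depth, and Pilrb2 passed it only through CTL and DMH. Complement C2 was at -1.07 ± 0.24, but its exons overlap those of Gm20547 on the same strand, at 220 CPM, so its value is uncertain.

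Tctn3, a gene of the base of the cilium, had 0.609, 0.885, 0.860 and 1.21 CPM in DM1 to DM4, against 1.66, 1.49, 1.95 and 1.72 in CTL1 to CTL4 and 3.65, 3.71, 2.53 and 2.30 in DMH1 to DMH4. DM was lowest and DMH highest for Tctn3 (-1.34 ± 0.26 log2, adjusted p = 0.136), so DMH did not sit at the CTL level. The mitotic histone kinase gene Haspin (-2.14 ± 0.48 log2), the growth factor receptor gene Fgfr1 (-1.22 ± 0.27), the tight junction gene Cldn14 (-1.23 ± 0.29), Tmem268 (-1.11 ± 0.23) and Rogdi (-0.59 ± 0.13) were the others of the 10. Haspin had 2, 1, 3 and 3 counts in DM1 to DM4 and passed the filter on low counts only through CTL and DMH. Tctn3, with 9, 11, 14 and 19 counts there, also passed it only through CTL and DMH. Rogdi averaged 18.1 CPM in DM, 21.9 in CTL and 33.8 in DMH, so its DMH level was above CTL.

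**Figure D4:**
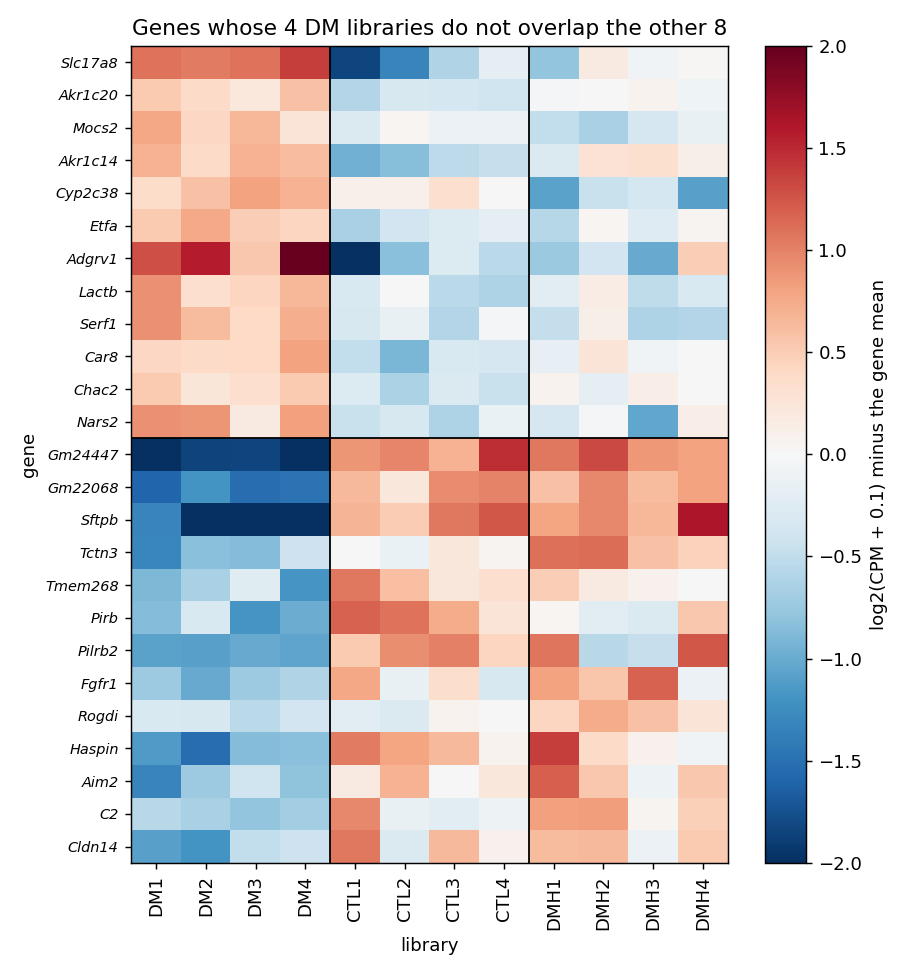
Each library's log2(CPM + 0.1) minus the gene's mean over the 12 libraries, as colour, for 12 protein-coding genes whose DM libraries lie above the other 8 (top) and 13 genes whose DM libraries lie below (bottom), with columns in the order DM, CTL, DMH; colours are capped at -2 and 2. Gm24447, Gm22068 and Sftpb head the lower block and are the 3 called genes.

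Groups of genes were then described by counts and medians of their tested members, and no member of the 52 lists was called. The counts are to be read beside those of all 14643 tested genes. Of these, 7074 had a log2 difference above 0 and 7569 below 0, with a median of -0.01. DM lay above both other groups for 24.5% of them and below both for 29.4%. Of 19 male-biased liver genes, 15 had a log2 difference above 0, DM lay above both other groups for 14, and the median was 0.82. Mup21, one of the major urinary proteins that carry scent molecules in mouse urine, had 315, 453, 174 and 384 CPM in DM1 to DM4, against 22.3, 113, 131 and 97.8 in CTL1 to CTL4 and 97.3, 175, 197 and 342 in DMH1 to DMH4. The DM and DMH libraries overlapped (1.29 ± 0.42 log2, adjusted p = 0.232), and 44.4% of the words of Mup21 occur in other genes. Hsd3b5 (1.87 ± 0.71 log2, 40.7% shared words) averaged 75.3 CPM in DM, 7.75 in CTL and 54.85 in DMH. Mup3 (1.05 ± 0.54, 39.2% shared words) averaged 5362, 2300 and 2926 CPM in the same order. For both, DM overlapped DMH and not CTL. The summed level of the male-biased list ran from 24930 to 33380 CPM in DM, 2672 to 26440 in CTL and 5912 to 37300 in DMH, so it overlapped too, and without CTL1 the list's median was 0.62. Of 15 female-biased liver genes, 6 were tested, with 3 above 0 and 3 below. Their median was also above 0, at 0.25, or 0.52 without CTL1, and DM lay above both other groups for 3.

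Genes of glucose handling differed from each other in direction. G6pc, the catalytic subunit of glucose-6-phosphatase, had 156, 388, 249 and 170 CPM in DM1 to DM4, against 104, 177, 141 and 134 in CTL1 to CTL4 and 40.1, 35.1, 56.4 and 120 in DMH1 to DMH4. DM was highest, DMH lowest, and DM overlapped CTL (1.36 ± 0.33 log2, adjusted p = 0.185). Pck1, the cytosolic phosphoenolpyruvate carboxykinase, averaged 2883 ± 514 CPM in DM, 2726 ± 663 in CTL and 1838 ± 771 in DMH (SD, n = 4 each, adjusted p = 0.583), while its mitochondrial counterpart Pck2 had 1.76, 3.94, 2.09 and 1.46 CPM in DM, against 4.21, 4.43, 4.79 and 2.99 in CTL and 6.91, 6.29, 5.86 and 6.37 in DMH (-1.15 ± 0.27 log2, adjusted p = 0.185). Over the 14 gluconeogenesis genes the median was -0.21, with 5 above 0 and 9 below. Without CTL1 it was -0.02, with 7 above and 7 below, without DMH3 it was -0.09, and with the mitochondrial share as a covariate -0.14. Of 12 glycogen genes 5 were above 0, among them Ugp2, which makes the activated glucose for glycogen (0.56 ± 0.17), Ppp1r3b, which brings phosphatase to glycogen (1.26 ± 0.37), and the branching enzyme gene Gbe1 (0.81 ± 0.27). The median of that list was -0.07, and it ran from -0.13 without DM3 to 0.04 without DM2.

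In fat and bile acid metabolism the list medians were nearer 0 than the values of several single genes. Fat synthesis had a median of 0.27 over 16 genes, with DM above both groups for 7. The median was 0.09 without DM3, 0.42 without DMH3 and 0.15 with the 8 other libraries as 1 group. Srebf1, which drives this pathway, averaged 58.1 CPM in DM, 19.3 in CTL and 90.2 in DMH, so DM lay between (0.48 ± 0.36 log2). Fasn (0.36 ± 0.41) and Scd1 (-0.11 ± 0.51), the fatty acid synthase and desaturase genes, changed sign when single libraries were left out. Acacb, the carboxylase whose product blocks fatty acid entry to mitochondria, was at -1.09 ± 0.34 log2, the NADPH source Me1 at 1.33 ± 0.45 and the desaturase gene Fads2 at 0.48 ± 0.18. Me1 had 110.5, 35.4, 138 and 43.5 CPM in DM1 to DM4 and overlapped CTL, and 40% of its words occur in other genes.

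In fatty acid oxidation the median was 0.16 over 22 genes, at -0.28 against CTL and 0.56 against DMH. It was 0.02, 0.03, 0.09 and 0.10 without CTL1, DMH3, DM1 or DMH1, 0.31, 0.32 and 0.25 without CTL2, DM3 or DMH2, 0.10 at a minimum of 1 CPM and 0.04 with the 8 other libraries as 1 group. Its genes of lowest unadjusted p were Hadh (0.55 ± 0.14) and Acadm (0.58 ± 0.18), both dehydrogenases of beta-oxidation, and the ketone body enzyme gene Bdh1 (0.68 ± 0.30). Cpt1a, the gate of this pathway, was at -0.11 ± 0.16. Bile acid genes had a median of 0.32 over 17, and DM was above both groups for 10 and below both for none; with the 8 other libraries as 1 group the median was 0.21. Baat, which joins bile acids to amino acids, had 266, 316, 244 and 280 CPM in DM1 to DM4, against 197, 195, 185 and 208 in CTL1 to CTL4 and 218, 283, 243 and 199 in DMH1 to DMH4 (0.36 ± 0.13 log2, adjusted p = 0.263). Hsd17b4 (0.59 ± 0.20) and Scp2 (0.59 ± 0.23, 34.7% shared words), which shorten the side chain in peroxisomes, were at similar values. Cyp7a1, the rate-limiting enzyme of bile acid synthesis, averaged 79.4 CPM in DM, 27.6 in CTL and 117 in DMH, where DMH3 alone had 348. Fgf21, a hormone of fasting liver, averaged 0.23 ± 0.69 log2 from the other groups.

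Haem synthesis, in which protoporphyrin IX is the last intermediate, had a median of 0.13 over 12 genes. DM was above both groups for 4 and below both for 2, where 24.5% and 29.4% of all tested genes were so placed. The median was 0.02, 0.06 and 0.07 without DM3, DM1 or CTL4, and 0.05 and 0.06 with limma at pseudocounts of 1 and 0.1. Alas1, the first enzyme, had 260, 191, 226 and 167 CPM in DM1 to DM4, against 236, 170, 197 and 274 in CTL1 to CTL4 and 117, 111, 124 and 223 in DMH1 to DMH4 (0.25 ± 0.21 log2, adjusted p = 0.651). Fech, which puts the iron into protoporphyrin IX, had 84.7, 81.3, 73.6 and 61.9 CPM in DM, against 65.8, 60.03, 63.4 and 55.0 in CTL and 63.0, 79.4, 72.0 and 62.2 in DMH (0.21 ± 0.13 log2, adjusted p = 0.487). For both, the groups overlapped. Cpox (0.43 ± 0.19) and the mitochondrial transporter genes Abcb10 (0.41 ± 0.17) and Slc25a38 (-0.43 ± 0.15), the second of which brings in glycine, had the lowest unadjusted p of the list. Slc25a38 averaged 21.15 CPM in DM, 21.27 in CTL and 38.47 in DMH, so DM was at the CTL level and DMH above both. Hmox1, which breaks haem down, was at -0.85 ± 0.41 log2 (adjusted p = 0.387).

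Lists of protein folding, respiration and defence against oxidants had medians above 0 that were larger against DMH than against CTL. The median of 18 unfolded protein response genes was 0.49 in DM against both groups, 0.11 in DM against CTL and 0.90 in DM against DMH. The first of these was 0.27 without DM2. Hspa5, the chaperone BiP of the endoplasmic reticulum, had 280, 267, 259 and 120 CPM in DM1 to DM4, against 79.5, 144, 147 and 146 in CTL1 to CTL4 and 30.1, 34.7, 43.5 and 183 in DMH1 to DMH4 (1.25 ± 0.45 log2, adjusted p = 0.265). In each group 1 library stood apart for this gene. Hyou1 (1.32 ± 0.42) and Pdia4 (0.68 ± 0.21), a chaperone and a disulphide isomerase of the same compartment, were also above 0.

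For 15 heat shock genes the medians were 0.27 against both groups, -0.35 against CTL and 0.92 against DMH. DM lay between CTL and DMH for 11 of these genes. The median against both groups was 0.08 without DM1, 0.16 without CTL1, 0.14 with the 8 other libraries as 1 group, and 0.10 and 0.18 with limma at pseudocounts of 1 and 0.1. Hsp90aa1 (1.23 ± 0.38), 53.4% of whose words occur in other genes, Hsph1 (0.83 ± 0.35) and Chordc1 (0.33 ± 0.15) had the lowest unadjusted p there. Of 33 nuclear genes of oxidative phosphorylation, 32 were above 0 with a median of 0.22, which was -0.07 against CTL and 0.51 against DMH, and DM was above both groups for 14. Cox7b, a subunit of cytochrome c oxidase, had 225, 220, 197 and 202 CPM in DM1 to DM4, against 117, 177, 161 and 186 in CTL1 to CTL4 and 88.2, 120, 159 and 147 in DMH1 to DMH4. Its DM libraries lay above the other 8 (0.56 ± 0.17 log2, adjusted p = 0.216). The complex III subunit genes Uqcrc2 (0.45 ± 0.14) and Uqcrfs1 (0.40 ± 0.13) followed it.

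Antioxidant genes had a median of 0.30 over 20, or 0.14 without DM3, with DM above both groups for 11. Thioredoxin, encoded by Txn1, had 277, 325, 324 and 283 CPM in DM1 to DM4, against 181, 187, 195 and 193 in CTL1 to CTL4 and 168, 205, 238 and 262 in DMH1 to DMH4, with no overlap (0.57 ± 0.13 log2, adjusted p = 0.185). Catalase (Cat) was at 0.63 ± 0.23 log2. Nfe2l2, the transcription factor of this response, had 124, 109, 199 and 143 CPM in DM, against 56.3, 63.0, 56.0 and 54.2 in CTL and 123, 148, 205 and 86.3 in DMH, so that DM and DMH overlapped above CTL (0.68 ± 0.21). Drug-metabolising P450 genes had a median of 0.26 over 23, which was 0.14 without DM3 and 0.02 at a minimum of 1 CPM. Cyp2c29 (1.22 ± 0.26) and Cyp2c50 (0.88 ± 0.21, 34.2% of words shared with other genes) stood beside Cyp2c38 there.

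Among the 20 described lists, the lowest medians were those of neutrophil and Kupffer cell markers. All 12 tested Kupffer cell markers had a log2 difference below 0, 11 of them with an unadjusted p under 0.05, where 7.47% of all tested genes were lower at that p, and the median was -1.48. Csf1r, the receptor for the growth factor of macrophages, had 10.96, 17.1, 16.6 and 8.65 CPM in DM1 to DM4, against 39.4, 67.9, 51.4 and 37.2 in CTL1 to CTL4 and 54.3, 24.4, 13.2 and 36.6 in DMH1 to DMH4. DMH3 lay among the DM libraries, and the other DMH libraries above them (-1.57 ± 0.36 log2, adjusted p = 0.182). In these bulk samples, fewer Kupffer cells and less of these RNAs per cell cannot be told apart.

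Clec4f, a lectin found on Kupffer cells, was at -1.38 ± 0.32 log2 and Cd5l, which these cells secrete, at -2.05 ± 0.50, with adjusted p = 0.185 for each. The 12 markers summed to 140 to 319.5 CPM in DM, 479 to 1045 in CTL and 195 to 564 in DMH over the plain library total. Without CTL1 the median was -1.47, and without DMH3 it was -1.63. Exons of Csf1r overlap those of Hmgxb3 on the other strand, at 8.67 CPM.

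Of 10 listed neutrophil genes, 4 were tested, and all 4 averaged lower in DM than in both groups. Their median was -3.07, which was -1.93 without CTL1, -1.48 with limma at a pseudocount of 1 and -0.85 at a minimum of 1 CPM. S100a8, a subunit of the calprotectin of neutrophils, had 0.676, 1.04, 1.72 and 0.255 CPM in DM1 to DM4, against 114, 8.31, 10.1 and 2.61 in CTL1 to CTL4 and 5.98, 0.357, 1.58 and 5.06 in DMH1 to DMH4. The CTL1 library was far above all others, while DMH2 and DMH3 lay within the DM range (-3.48 ± 1.16 log2, adjusted p = 0.242). Retnlg (-3.98 ± 1.35) and the granulocyte growth factor receptor gene Csf3r (-0.82 ± 0.31, 28.6% shared words) were the others of lowest p. Retnlg had 2, 0, 3 and 1 counts in DM1 to DM4, and S100a8 had 10, 13, 28 and 4. Both passed the filter on low counts only through CTL and DMH, where they are high. The 9 tested B and plasma cell markers had a median of -0.91 (-1.65 at a minimum of 1 CPM and -0.44 with limma at a pseudocount of 1), at a summed 23.9 to 99.9 CPM in DM, 205 to 349 in CTL and 35.2 to 59.6 in DMH, so for these the DM range overlapped that of DMH and not that of CTL.

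Plasma proteins of the acute phase, made by hepatocytes in inflammation, had medians of -1.07 against both groups, -1.90 against CTL and -0.09 against DMH over 19 genes. Orm2, an orosomucoid, had 12.7, 13.6, 17.3 and 11.1 CPM in DM1 to DM4, against 3555, 334, 203 and 84.9 in CTL1 to CTL4 and 152, 21.0, 66.3 and 83.8 in DMH1 to DMH4. All DM libraries lay below the other 8 (-4.41 ± 1.06 log2, adjusted p = 0.185), and CTL1 was far above its group. The iron-scavenging lipocalin gene Lcn2 (-4.43 ± 1.34) and the serum amyloid gene Saa1 (-4.19 ± 1.41) had the same high CTL1 value, and without CTL1 the median of the list was -0.52. For both, DM overlapped DMH. Saa1 averaged 32.5 CPM in DM and 51.8 in DMH, so its difference lay mostly against CTL. Orm2 and Saa1 share 39.1% and 54.2% of their words with other genes.

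Complement and coagulation genes had a median of -0.27 over 22, or -0.17 without DM3, with 19 below 0. Hc, which encodes complement C5, had 630, 610, 663 and 561 CPM in DM1 to DM4, against 1388, 831, 983 and 1026 in CTL1 to CTL4 and 1441, 920.3, 672 and 972 in DMH1 to DMH4. The DM libraries lay below the other 8, with DMH3 nearest (-0.74 ± 0.21 log2, adjusted p = 0.206). C4b was at -0.81 ± 0.30, with 53.9% of its words in C4a.

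Interferon-induced genes had a median of -0.41 over 18, which was -0.21, -0.25 and -0.62 without CTL4, DMH1 or DM4, with Irf7 (-0.88 ± 0.39), a transcription factor of this response, at the lowest unadjusted p. Tgtp1 (-1.19 ± 0.59, 85.6% shared words) and Oasl2 (-0.77 ± 0.38) came next. Antigen presentation genes had a median of -0.47 over 15, which was -0.72 against CTL and 0.02 against DMH. The first of these was -0.28 without CTL2 and -0.31 without DM4. The class I gene H2-D1 had 437, 460, 445 and 405 CPM in DM, against 849, 794, 732 and 839 in CTL and 573, 423, 322 and 499 in DMH (-0.47 ± 0.16 log2, adjusted p = 0.256). The DM and DMH libraries overlapped below CTL, and 36.3% of the words of H2-D1 occur in other genes. The immunoproteasome gene Psmb8 was at -0.58 ± 0.20 and Nlrc5, the activator of class I genes, at -0.54 ± 0.22. Nlrc5 averaged 46.0 CPM in DM, 51.7 in CTL and 86.2 in DMH, so its difference lay mostly against DMH, and DM overlapped CTL.

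Of 19 cell cycle genes, 18 were below 0 with a median of -0.57, which was -0.28 at a minimum of 1 CPM and -0.11 with limma at a pseudocount of 1. Mki67, a protein of dividing cells, had 1.69, 2.41, 2.09 and 1.27 CPM in DM1 to DM4, against 12.9, 9.95, 11.3 and 6.04 in CTL1 to CTL4 and 21.4, 2.50, 1.41 and 5.98 in DMH1 to DMH4. DMH3 lay among the DM libraries and DMH2 just above them (-2.24 ± 0.65 log2, adjusted p = 0.207). The mitotic kinase gene Plk1 (-1.59 ± 0.50) and Birc5 (-1.28 ± 0.40), which acts in the separation of chromosomes, had similar values. Plk1 had 6, 5, 2 and 5 counts in DM1 to DM4 and passed the filter on low counts only through CTL and DMH.

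**Figure D5:**
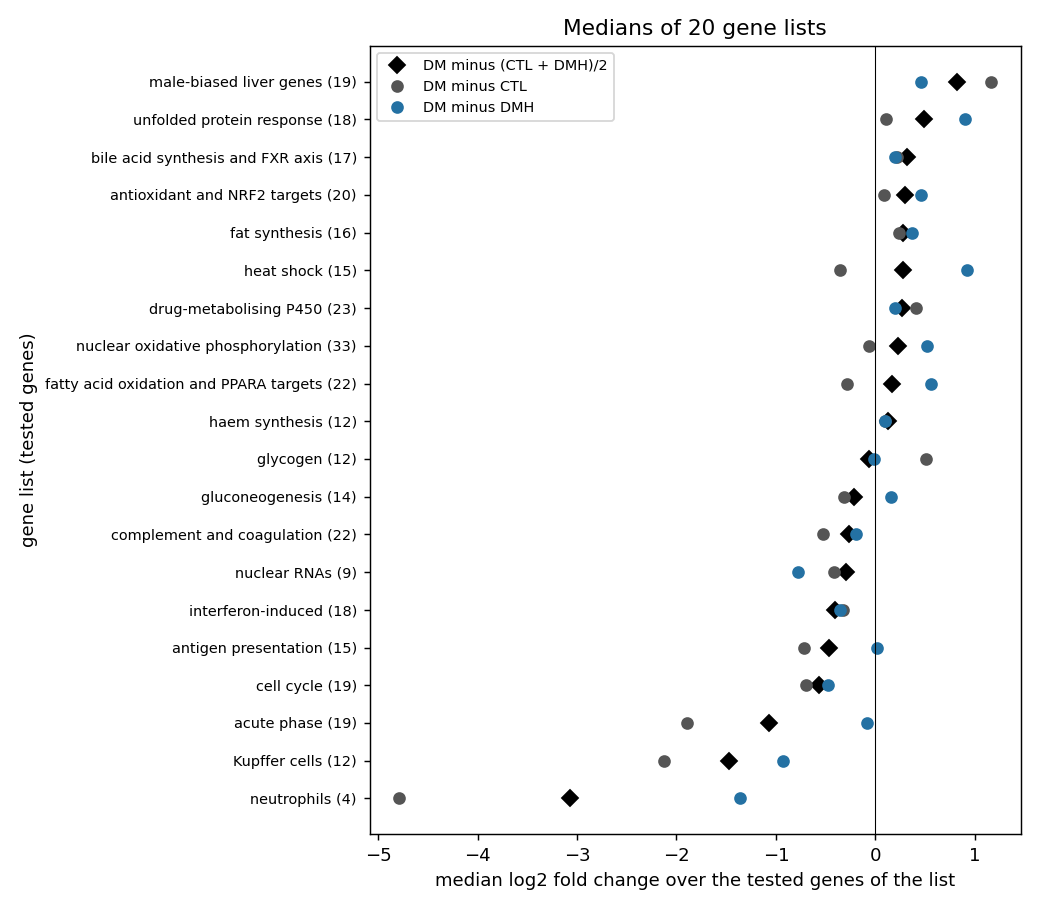
Median log2 fold change of the tested members of 20 gene lists (number of tested genes in brackets) in DM minus the average of CTL and DMH (diamonds), DM minus CTL (grey) and DM minus DMH (blue). Male-biased liver genes are at the top with 0.82 and neutrophil genes at the bottom with -3.07; the blue and grey points lie on opposite sides of 0 for heat shock genes, among others.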

How the data were processed

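The members and gene lists were chosen with earlier results of these data known. Per the submitters' design text, Trimmomatic 0.36 filtered the reads, HISAT2 2.1.0 aligned them (GRCm38) and StringTie gave a count per gene. The table the authors deposited lists whole-number counts of 54838 Ensembl genes in 12 libraries, and these counts were tested. The authors' deposited FPKM, which is the count over a fixed gene length and the library total (within 0.0759%), was used in an alternative. Strand setting and StringTie version are not given in the sources used, and StringTie counts of genes with close copies depend on how shared coverage was divided.

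All 12 libraries entered 1 edgeR 4.0.16 model (R 4.3.3) with a mean per group, TMM factors and robust quasi-likelihood F tests, with 9 residual degrees of freedom. The filterByExpr filter (count 10, total 15) kept 14643 genes, of which 12467 are protein-coding. The contrast was DM minus the average of CTL and DMH at weights of 0.5. Adjustment was by Benjamini-Hochberg over the tested genes of a contrast, and a gene was called under 0.05. Log2 fold changes carry their SE; CPM are TMM-scaled, unless the plain library total is named, with SD over 4 libraries. "Above both" and "below both" compare the fitted group levels. Each SE was derived from the F statistic. The model was also run on counts simulated from its own fitted spread, and the outcome is not used here. Named genes are the called ones, the up to 12 protein-coding genes per direction of lowest p whose DM libraries do not overlap the other 8, a set of 11 genes of glucose, fat, bile acid and haem metabolism, and the 3 members of lowest unadjusted p in each of 20 lists. Of the genes so chosen, 1 is not reported here. Which 20 of the 52 lists to describe was decided after their values were seen. The lung list was added later. Shared words are 25-base words of GENCODE M21 transcripts, and their share is given for some of the named genes only. Alternatives used DESeq2 1.42.0, limma 3.58.1, other scalings and filters, and left out each library in turn. Chi-square tests of replicate pairs gave 39.5 to 432 per degree of freedom, so none was a copy. Intervals cover counting error only.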

Additional observations from a re-analysis of the deposited data

Results flagged for a closer look

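In 30 of 285 sets of 4 libraries, 1 library of a group lay so far from the other 3 that its gap to the nearest, as a share of the group's range, exceeded Dixon's 95% critical value, which is 10.5% of the sets, where chance gives about 1 in 20. Values are TMM-scaled CPM, and causes were not tested.

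Among DM libraries, DM4 was high for Slc17a8 at 46.3, where the others had 36.8 to 37.9, and for Car8 at 97.0, beside 72.5 to 73.9. DM4 was low for Hspa5 at 120, beside 259 to 280. DM3 was high for the fat synthesis genes Srebf1 at 101, beside 42.3 to 46.3, Fasn at 149, beside 43.9 to 48.2, and Acacb at 14.6, beside 6.36 to 7.38. DM3 was low for Nars2 at 13.0, beside 20.3 to 21.5, and for Ppp1r3b at 67.6, beside 179 to 194. DM1 was low for Cyp7a1 at 38.2, beside 89.2 to 98.9, and had the only Sftpb count of the group, at 0.0676. DM2 was high for Rpph1 at 1.69, beside 0.921 to 1.02.

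Among CTL libraries, CTL1 stood apart for 12 genes. It was high for the acute phase genes Saa1 at 25740, where the others had 96.6 to 1103, Orm2 at 3555, beside 84.9 to 334, and Lcn2 at 2975, beside 36.5 to 107. It was high as well for the neutrophil genes S100a8 at 114, beside 2.61 to 10.1, and Retnlg at 16.1, beside 0.318 to 1.60. The complement genes C4b at 3326, beside 1174 to 1539, and C2 at 101, beside 45.0 to 48.5, followed, with Birc5 at 5.80, beside 2.78 to 3.03, and Acacb at 38.6, beside 19.5 to 22.4. CTL1 was low for Cat at 971, beside 1943 to 1995, Acadm at 247, beside 326 to 332, and Hspa5 at 79.5, beside 144 to 147. CTL4 was high for Scd1 at 6303, beside 1779 to 2198, and for Irf7 at 74.6, beside 48.3 to 50.03.

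Among DMH libraries, DMH4 was high for Hspa5 at 183, beside 30.1 to 43.5, and for Alas1 at 223, beside 111 to 124. DMH3 was high for Cyp7a1 at 348, beside 31.7 to 50.6, DMH2 was high for Serf1 at 4.86, beside 2.87 to 3.18, and DMH1 was low for Uqcrc2 at 57.4, beside 83.2 to 88.2.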

How the results depend on the processing

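The 3 calls of DM against CTL and DMH together were 3 also with RLE size factors, with DM against the 8 other libraries as 1 group and with mitochondrial genes left out. They were 4 without a filter, 4 with limma on log2(FPKM + 1) and 2 with the mitochondrial share as a covariate. They were 1 at a minimum of 1 CPM in all libraries, where Gm22068 and Sftpb are not tested, 5 with limma on log2(FPKM + 0.1), 365 with DESeq2, and 632, of which 158 higher, under the submitters' rule of fold 2 read with unadjusted p. Leaving out 1 library at a time gave 1 to 19. The 32 calls of DM against CTL became 65 without a filter, 80 and 44 with limma at pseudocounts of 1 and 0.1, 929 with DESeq2, 3 with the covariate and 1154 under fold 2, and 7 to 248 with a library left out. The 5 of DM against DMH became 12 at a minimum of 1 CPM, 718 with DESeq2, 2 with the covariate and 749 under fold 2, and 1 to 155 with a library left out. The 2255 of DMH against CTL became 1012 and 866 with limma, 0 with the covariate (913 higher and 721 lower at an unadjusted p under 0.05) and 623 to 2967 with a library left out. At a pseudocount of 0.1 limma moved the median of all genes to -0.13 for DM minus CTL and -0.14 for DMH minus CTL.

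Same-numbered libraries correlated at -0.129 to 0.112 in their deviations from group means, so the numbers did not pair them. With a replicate block the 4 counts were 1, 1, 1 and 1001, in the order above, and the gene called for DM against both groups was Gm24447. Gm24447 was called in 23 of 23 fits, Gm22068 in 20 of 22 and Sftpb in 9 of 22. The log2 difference changed sign for Fasn, to -0.30 without DM3 within a leave-one-out range of -0.30 to 0.53, for Scd1, to 0.04 to 0.19 without CTL4, DM3, DM4 or DMH1 within a range of -0.43 to 0.19, and for Fgf21, to -0.26 with the 8 libraries as 1 group. The difference in mitochondrial share ran from -1.79 to 3.5 percentage points with a library left out. The causes were not tested. Genes of few counts, such as Sftpb, are limited by depth.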

Other observations

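Hepatocytes differ along the lobule, from the portal vein to the central vein. Of 10 tested markers of pericentral hepatocytes, 8 had a log2 difference above 0 in DM against CTL and DMH together, with a median of 0.34 (0.19 with limma at a pseudocount of 1), and none was called. Cyp1a2, a cytochrome P450 of that zone, had 564, 443, 420 and 471 CPM in DM1 to DM4, against 185, 215, 373 and 277 in CTL1 to CTL4 and 243, 289, 275 and 377 in DMH1 to DMH4, with no overlap (0.77 ± 0.19, edgeR adjusted p = 0.185). Of 10 markers of periportal hepatocytes, 7 were below 0 with a median of -0.47, which was -0.22 without CTL1. Hal, which starts histidine breakdown, had 115, 193, 102 and 132 CPM in DM, against 554, 265, 185 and 224 in CTL and 197, 212, 208 and 174 in DMH (-0.86 ± 0.28, edgeR adjusted p = 0.228), and its groups overlapped. Both genes were chosen after their values were seen. Beside the 20 plotted lists there are 32 others, 29 of them with at least 5 tested genes, whose medians ran from -0.91 for B and plasma cells to 0.34 for the pericentral markers.

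Gm28040, also chosen after its values were seen, was called by DESeq2 and by limma on both FPKM scales, and not by edgeR (adjusted p = 0.135). It had 0.0676, 1.13, 0.983 and 0 CPM in DM1 to DM4, against 11.3, 5.37, 5.67 and 12.7 in CTL1 to CTL4 and 4.11, 15.6, 12.6 and 6.77 in DMH1 to DMH4. The gene passed the filter on low counts only through CTL and DMH, where it is high. Its annotated span, chr1:133309827-133329901, overlaps Golt1a and Kiss1 on the same strand, so its value is uncertain, and Golt1a averaged 19.4 CPM in DM, 19.7 in CTL and 7.47 in DMH.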
